A study of Lactuca sativa with 32 samples.

Results

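Red oak leaf lettuce (Lactuca sativa) was grown behind a PTB7-Th:IEICO-4F filter or behind clear glass at adjusted light intensity, and leaf messenger RNA of the 2 groups was compared. The comparison took the 4 plants titled as PAR controlled (PC) PTB7-Th:IEICO-4F and the 4 titled as PC control, 8 of the 32 samples of the series. PAR stands for photosynthetically active radiation. The filtered plants received the light of ceramic metal halide and incandescent lamps through a single organic photovoltaic filter with the blend PTB7-Th:IEICO-4F, and the control plants received the light of the same kinds of lamp through clear glass. In both groups the intensity of the light had been adjusted. The other PC plants grew under FTAZ:IT-M or FTAZ:PCBM filters, and the same 4 covers were used in a height controlled (HC) experiment without the adjustment, again with 4 plants for each. Boxes held 16 plants up to a transplant harvest in week 3 and 8 plants up to the final harvest in week 5, and pots changed position every 2 days. The labels do not say at which harvest the leaves were taken or how many boxes a cover had, so box and cover cannot be told apart. Sample titles spell the acceptor of the PC filter IEIECO-4F, and the characteristics entry IEICO-4F was used.

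An organic photovoltaic filter is a semi-transparent film of the light-absorbing layer of a solar cell. PTB7-Th is an electron-donating polymer, and IEICO-4F is a non-fullerene electron acceptor known for strong absorption in the near infrared. Plants read the colour of light through photoreceptors: phytochromes respond to red and far-red light, and cryptochromes and phototropins to blue light. In leaves these receptors set the transcript levels of many genes, among them genes of photosynthesis, pigment synthesis and shade responses. The gene identifiers of the files carry no product names, so the genes below are given by identifier, position and structure, and no function is assigned to them. For the same reason the leaf label could not be checked against marker genes.

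The 4 plants under the filter gave between 47895842 and 48678227 counts, and the 4 control plants between 48005751 and 48764530, so depth was nearly equal. At this depth 3 counts, taken as the smallest level that can be shown, correspond to 0.0615 to 0.0626 CPM (counts scaled to 1000000 per plant), which covers counting error only. Plants of the same group had a Pearson r of log2 CPM between 0.982 and 0.988 across genes in the 12 pairs, and no 2 plants had identical counts. Levels below are CPM scaled by TMM, and a level per length is CPM per kilobase of exon (RPKM). The values come from whole leaf samples, in which fewer cells of a type and less RNA per cell cannot be told apart. Each sample is a plant, and p-values measure the spread between plants.

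More genes were lower than higher under the filter. Of 24483 genes tested, 819 (3.35%) were called at an adjusted p under 0.05 by edgeR's quasi-likelihood test: 602 were lower (2.46%) and 217 were higher (0.886%), so that 73.5% of the called genes were lower. The log2 fold change, filter over glass, had a median of −0.63 over the genes called lower and 0.60 over the genes called higher, against 0.003 over all genes tested. Changes were mostly small: the quartiles of the log2 fold change over the genes called lower were −0.86 and −0.47.

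Over all tested genes the signs were nearly even. Before any threshold, 12110 tested genes had a negative log2 fold change and 12373 a positive one. TMM scaling centres the fold changes near 0, so this split cannot show how widely the excess was spread. Changes of more than 1 log2 unit were likewise nearly even among all tested genes, 457 lower and 405 higher, whereas 104 of these lower genes and 20 of these higher genes were called. CPM ranges of the groups did not overlap for 1839 lower genes (7.51% of those tested) and 1418 higher genes (5.79%). At an unadjusted p under 0.05 there were 2649 lower and 1776 higher genes. At an adjusted p under 0.01 the split was 154 lower and 63 higher genes (71.0% lower).

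**Figure D1:**
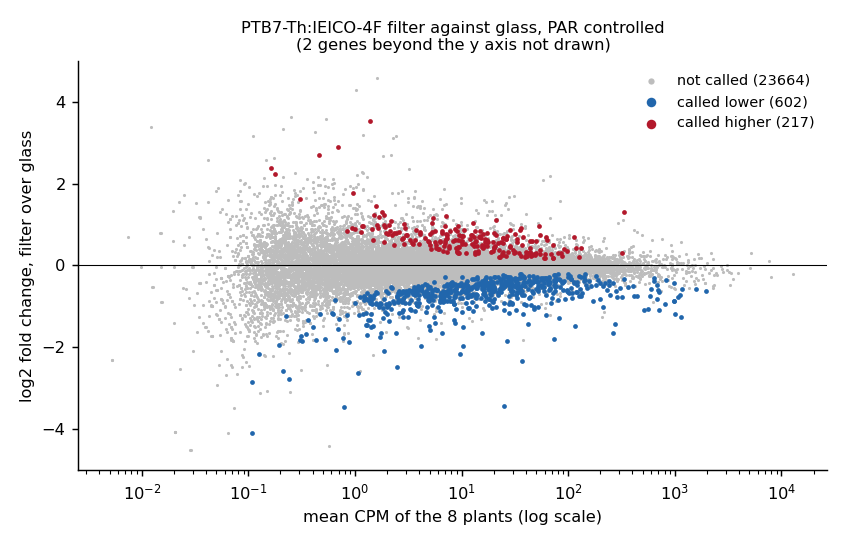
Log2 fold change of each tested gene, PTB7-Th:IEICO-4F filter over glass in the PC experiment, against its mean CPM over the 8 plants on a log axis. The 602 genes called lower are blue, the 217 called higher are red and all others are grey; 6 red points lie at 100 CPM and above, against 78 blue ones, and 2 genes lie beyond the axis limit of 5 log2 units.

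The size of the excess depended on the model and on single plants. A model of only the 8 plants compared called 857 lower and 515 higher genes, 62.5% lower, and these included 506 of the 602 and 170 of the 217. Leaving out any single plant kept lower genes in the majority, at 63.8% to 77.7% of calls, but moved their number widely. Lower and higher calls were 290 and 157 without PC PTB7-Th:IEICO-4F replicate 1, 281 and 104 without its replicate 2, and 127 and 72 without its replicate 4. They were 219 and 89 without PC control replicate 3, 216 and 103 without PC control replicate 4, and 424 and 133 without PC control replicate 2. Lower calls rose without PC PTB7-Th:IEICO-4F replicate 3 (810 lower, 232 higher) and without PC control replicate 1 (645 lower, 187 higher).

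Individual plants took consistent places across the genes called lower. Replicate 4 was the lowest of the 4 filtered plants for 365 of the 602 genes (60.6%, against 25.5% of all tested genes) and replicate 3 was the highest for 387 (64.3%, against 28.2%). Relative to the control mean, the median gene of the 602 stood at −0.66, −0.61, −0.46 and −0.77 log2 units in filtered replicates 1 to 4. Among the control plants, replicate 1 was the lowest for 337 genes (56.0%, against 29.9% of all tested genes). Replicates 3 and 4 were the highest for 265 and 206 (44.0% and 34.2%, against 27.8% and 21.8% of all tested genes). The filtered plants thus differed in the size of the fall, with replicate 3 least and replicate 4 most displaced.

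The 14 largest falls were taken among called genes with a mean of at least 1 CPM and CPM ranges that did not overlap. Each of them lay on a different scaffold, and in each the filtered PC plants, whose low level was part of the choice, had the lowest mean of the 8 groups of the series. LOC111890999 had the largest fall of the 14. It is a protein-coding gene of 3 exons on scaffold NW_019672709.1, from 4086350 to 4089117 on the minus strand of Lsat_Salinas_v7. Its level was 0.642, 0.692, 1.13 and 0.527 CPM in the filtered plants, against 2.47, 1.70, 5.81 and 6.89 CPM in the control plants. All filtered plants were below all control plants, and the control plants varied more than the filtered ones. The log2 fold change was −2.49 (SE 0.50, edgeR adjusted p = 0.0051). Under HC the gene had 11.5 ± 7.74 CPM behind the filter and 23.7 ± 4.36 CPM behind glass (SD, n = 4 each). Both HC means were above the means of all 4 PC groups.

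LOC111889473 had the smallest adjusted p of the 14 and the tightest groups. This protein-coding gene of 5 exons lies on NW_019681439.1, from 1036918 to 1038691 on the plus strand. It had 2.49, 3.05, 2.71 and 1.88 CPM in the filtered plants, against 7.30, 7.61, 6.003 and 9.04 CPM in the control plants. Every filtered plant was well below every control plant. The log2 fold change was −1.56 (SE 0.24, edgeR adjusted p = 0.000454), and across all alternatives the adjusted p reached at most 0.00846. For single genes, here and below, the alternatives were up to 16 other models, filters and sample sets, without the stricter thresholds.

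LOC111877948, a protein-coding gene of 4 exons on NW_019678756.1 (1880861 to 1881965, plus strand), had 1.32, 0.554, 1.84 and 0.938 CPM in the filtered plants, against 3.96, 4.78, 3.20 and 2.77 CPM in the control plants (log2 fold change −1.66, SE 0.28, edgeR adjusted p = 0.00115). LOC111898254, with 2 exons on NW_019672955.1 (1505940 to 1508700, minus strand), had 0.915, 1.03, 0.731 and 0.449 CPM in the filtered plants, against 2.06, 1.70, 3.58 and 3.12 CPM in the control plants (log2 fold change −1.74, SE 0.31, edgeR adjusted p = 0.00195). Neither gene had overlapping groups. LOC111891823, a single-exon gene on NW_019681960.1 (107167 to 107884, minus strand), had 3.31, 5.05, 5.67 and 2.75 CPM in the filtered plants, against 10.1, 10.4, 28.04 and 16.9 CPM in the control plants. It overlaps another annotated gene, and since no strand option was set in the counting, its reads may include those of the other gene. Its log2 fold change was −1.96 (SE 0.41, edgeR adjusted p = 0.00651). These 5 genes kept their call in every alternative that tested them.

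The other 9 of the 14 had log2 fold changes between −2.34 and −1.64 and each lost its call in at least 1 alternative that left out a plant. Without PC PTB7-Th:IEICO-4F replicate 1, 2 or 4, the number of the 14 that lost the call was 8, 9 and 9, and without PC control replicate 3 or 4 it was 8 and 6. LOC111883128, a single-exon gene, had 7.03, 12.4, 21.4 and 7.62 CPM in the filtered plants, against 21.8, 41.7, 143.6 and 38.5 CPM in the control plants. The groups were separated by less than 1 CPM, between filtered replicate 3 and control replicate 1. Control replicate 3 stood far above the other control plants (log2 fold change −2.34, SE 0.63, edgeR adjusted p = 0.0347). LOC111908061, also single-exon, had 25.8, 30.3, 45.1 and 29.9 CPM in the filtered plants, against 46.0, 74.5, 223.2 and 108.8 CPM in the control plants, again with the highest value in control replicate 3 and groups that barely separate. The same replicate held the highest control value in 10 of the 14 genes, and filtered replicate 3 the highest filtered value in 11. LOC111908248 was the most abundant of the 14, with 94.3, 160.1, 174.8 and 85.3 CPM in the filtered plants, against 180.7, 239.4, 828.7 and 353.8 CPM in the control plants. Its groups also separated narrowly, and its call (edgeR adjusted p = 0.0486) was lost in 9 alternatives, with an adjusted p of up to 0.297. The remaining 6, LOC111885663, LOC111921236, LOC111884267, LOC111911682, LOC111897792 and LOC111912031, had filtered means from 0.60 to 11.6 CPM, against control means from 1.96 to 42.2 CPM.

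A further 20 genes were called lower with a fold as large as these but were outside the rule: 16 had a mean under 1 CPM and 8 had overlapping ranges. The largest at 1 CPM or more was LOC111920498, named here after its values were seen. It had 3.33, 3.84, 8.71 and 1.05 CPM in the filtered plants, against 6.85, 17.04, 129.2 and 29.3 CPM in the control plants (log2 fold change −3.43, SE 0.77, edgeR adjusted p = 0.0121). Filtered replicate 3 stood above control replicate 1, so the groups overlapped, and control replicate 3 was again the highest plant.

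**Figure D2:**
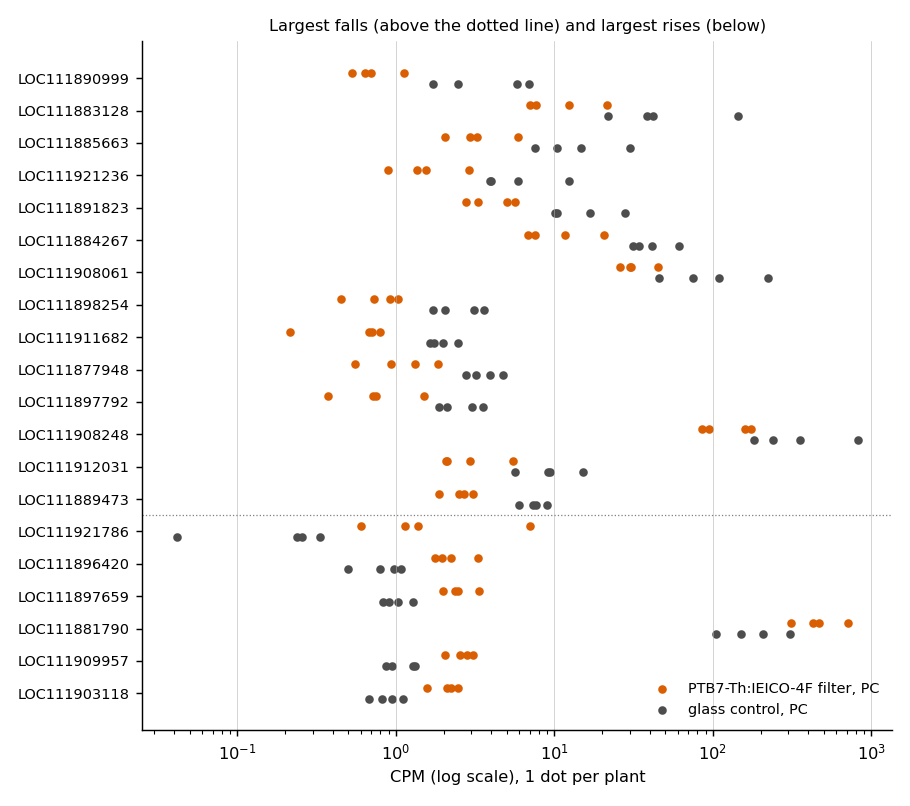
CPM of each plant, on a log axis, for the 14 largest falls and the 6 largest rises; orange dots are the 4 plants under the PTB7-Th:IEICO-4F filter and grey dots the 4 glass control plants, both PC. The dots of the groups do not overlap in any gene shown, as the rule requires, but the gap is narrow in LOC111883128, LOC111908061 and LOC111908248.

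In percent of the genes tested, the excess of lower genes was largest among genes with many reads. Among genes with a mean of at least 100 CPM, 78 of 1759 were lower (4.43%) and 6 were higher (0.341%), so 92.9% of the calls were lower. Below 100 CPM the share of calls that were lower did not rise steadily with read level. Between 1 and 5 CPM it was 74.7% (133 lower and 45 higher of 4362 genes). Between 5 and 10 CPM it was 63.8% (81 and 46 of 2890), and between 10 and 50 CPM 70.4% (221 and 93 of 8756). Between 50 and 100 CPM it was 76.5% (62 and 19 of 2512). Below 1 CPM only 27 lower and 8 higher genes were called among 4204, so 77.1% were lower. Per length the picture was similar: at 100 RPKM or more, 53 of 1041 genes were lower and 2 higher.

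**Figure D3:**
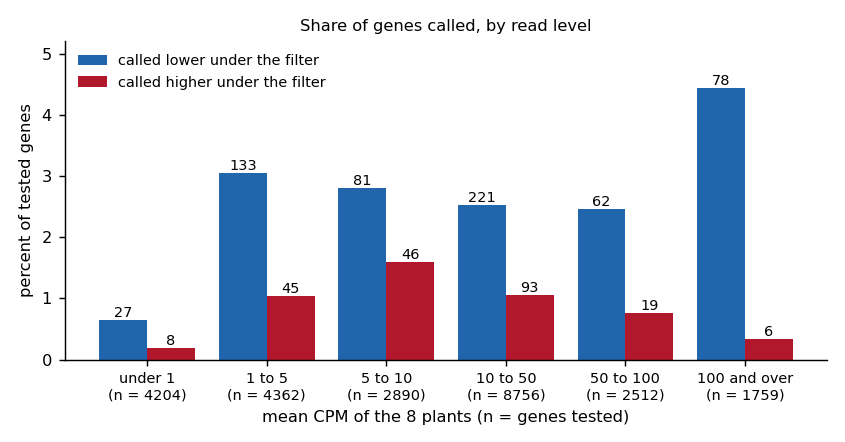
Percent of tested genes called lower (blue) and higher (red) under the PTB7-Th:IEICO-4F filter, by mean CPM over the 8 plants, with the number of called genes above each bar and the number tested under each class. Lower calls outnumber higher calls in all 6 classes. The gap in percent is widest at 100 CPM and over, at 4.43% against 0.341% (78 against 6 genes). In number of genes it is wider at 10 to 50 CPM, with 221 against 93.

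These abundant genes held most of the reads of the lower genes, and so most of the reads lost. Summed over the 602 genes, the level was 31311, 31838, 37052 and 29339 CPM in the filtered plants, against 42449, 45871, 60584 and 55379 CPM in the control plants. The filtered mean was 0.634 of the control mean, and genes of 100 CPM or more made up 77.4% of the difference. Those genes already held 38291 of the 51071 CPM of the control mean, so a share of about this size follows from their level. Their own filtered mean was 0.622 of their control mean. The lower genes took 3.41% of all counts behind the filter and 5.18% behind glass. The 217 higher genes were a much smaller pool, with a sum of 6059 ± 324 CPM in the filtered plants and 4257 ± 116 CPM in the control plants (SD, n = 4 each).

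The 5 genes called lower with the most reads were LOC111900973, LOC111898563, LOC111904178, LOC111888054 and LOC111904209. LOC111900973, on NW_019673625.1 (51040 to 52280, minus strand), had 1447, 1499, 1763 and 1417 CPM in the filtered plants, against 1863, 2038, 2893 and 2661 CPM in the control plants (log2 fold change −0.63, SE 0.16, edgeR adjusted p = 0.0256). Per length it stood at 1711 RPKM in the filtered plants and 2641 RPKM in the control plants, the highest of the 5. LOC111904209 had 805.2, 793.1, 999.04 and 807.4 CPM in the filtered plants, against 1026, 1189, 1811 and 1597 CPM in the control plants (log2 fold change −0.72, SE 0.18, edgeR adjusted p = 0.0231). In both genes every filtered plant was below every control plant, filtered replicate 3 was the highest filtered plant and control replicate 3 the highest control plant. LOC111898563 and LOC111904178 behaved alike, with log2 fold changes of −0.58 and −0.56. The calls of these 4 genes were lost without any 1 of filtered replicates 1, 2 and 4 or control replicates 3 and 4, with edgeR adjusted p-values of at most 0.197 over all alternatives.

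LOC111888054 differed from the other 4 in the size of its fall and kept its call in every alternative. It had 612.8, 641.2, 901.9 and 541.5 CPM in the filtered plants, against 995.1, 1227, 2276 and 1973 CPM in the control plants (log2 fold change −1.26, SE 0.26, edgeR adjusted p = 0.0052). The gene is 1 of 3 adjacent genes, all called lower, on NW_019681068.1 between 520659 and 568000. Each of the 3 has a single exon of 939 or 940 bp, and LOC111888030 and LOC111888029 lie on the plus strand and LOC111888054 on the minus strand. LOC111888029 had 317.2, 272.4, 417.6 and 296.2 CPM in the filtered plants, against 475.7, 577.6, 984.8 and 735.7 CPM in the control plants (log2 fold change −1.09, SE 0.22, edgeR adjusted p = 0.0051). LOC111888030 had 129.3, 157.4, 167.6 and 124.2 CPM in the filtered plants, against 187.3, 214.7, 342.3 and 276.9 CPM in the control plants (log2 fold change −0.82, SE 0.24, edgeR adjusted p = 0.0495). The call of LOC111888030 was lost in 8 alternatives. No option for reads that map to several places appears in the file headers, so if these neighbours are near-identical copies their counts are uncertain; their sequences were not used here.

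A second run of 3 adjacent lower genes, LOC111916389, LOC111916390 and LOC111916391, lies on NW_019677106.1 between 4283513 and 4330239. Each has 4 exons and an exonic length between 1149 and 1178 bp. LOC111916389 had 69.9, 61.9, 82.7 and 57.3 CPM in the filtered plants, against 129.3, 107.4, 124.8 and 117.3 CPM in the control plants. LOC111916390 had 17.9, 17.2, 20.9 and 13.7 CPM in the filtered plants, against 43.2, 27.6, 32.2 and 28.4 CPM in the control plants. LOC111916391 had 27.99, 26.1, 32.5 and 21.6 CPM in the filtered plants, against 67.0, 43.1, 55.0 and 46.2 CPM in the control plants. The 3 genes shared the same order of plants behind the filter, with replicate 4 lowest and replicate 3 highest. Their log2 fold changes were −0.82, −0.91 and −0.97 (edgeR adjusted p between 0.00251 and 0.00287). All kept the call in every alternative model, filter and sample set, but none reached the minimum log2 fold change of 1. Under HC the direction turned: log2 fold changes were 0.60, 0.63 and 0.70, with edgeR adjusted p of 0.0221, 0.0364 and 0.0285. The alternatives cover the PC calls of these genes only, and a model of only the HC groups compared called 20 genes in place of 937. The effect in HC minus that in PC was 1.42, 1.54 and 1.66 log2 units, with an edgeR adjusted p between 0.00109 and 0.00118, in genes that had been picked on their PC values. The same reservation about similar neighbours applies to these counts.

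Most lower genes were not next to each other. The 602 genes lay on 424 scaffolds, with at most 10 on 1 scaffold. Of the 602, 36 had another lower gene next to them, in 17 runs of which 15 were pairs. Counted as places next to a lower gene, where a gene between a pair of lower genes counts once for each, 38 of 639 places with a tested gene held a lower gene (5.95%, against 2.46% of all tested genes). Next to the 217 higher genes, 6 of 257 such places held a higher gene (2.33%, against 0.886%).

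The structure of the lower genes was close to that of all tested genes, with some differences. Protein-coding genes, by the biotype of the same identifiers in RefSeq's Lsat_Salinas_v11 annotation, were 96.7% of the lower genes and 94.9% of the higher genes, against 88.8% of all tested genes. Long non-coding RNAs were 1.99% of the lower and 3.23% of the higher genes, against 6.94% of all tested. Among genes of 5 CPM or more, where fewer such RNAs are measured, the shares were 1.58%, 1.83% and 3.84% in the same order. Single-exon genes were 16.8% of the lower and 10.6% of the higher genes, against 13.2% of all tested. Lower genes made up 81.7% of the calls among genes with under 1000 bp of exon (103 lower, 23 higher) and 57.1% among those of 3000 bp or more (28 lower, 21 higher). Of the 5049 tested genes under 1000 bp, 2.04% were lower and 0.456% higher. Of the 2680 of 3000 bp or more, 1.04% were lower and 0.784% higher. Over all tested genes the shares were 2.46% and 0.886%, so short genes were not called lower more often. Over all genes, the slope of log2 CPM on exonic length did not separate the groups: it was 0.000611 ± 0.032 per doubling of length in the filtered plants and −0.000611 ± 0.0453 in the control plants (SD, n = 4 each; exact permutation test, two-sided p = 1, smallest possible 0.0286).

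The 6 largest rises were smaller than the largest falls except in LOC111921786. That gene had 1.38, 1.15, 6.97 and 0.606 CPM in the filtered plants, against 0.333, 0.238, 0.255 and 0.0414 CPM in the control plants (log2 fold change 3.52, SE 0.93, edgeR adjusted p = 0.0329). Filtered replicate 3 held most of its reads. The call was lost in 5 alternatives, and without that plant the log2 fold change was 2.25 (edgeR adjusted p = 0.180). LOC111897659, of 16 exons on NW_019683448.1 (244412 to 271810, minus strand), had 2.36, 2.45, 2.00 and 3.34 CPM in the filtered plants, against 1.29, 0.912, 0.827 and 1.03 CPM in the control plants (log2 fold change 1.32, SE 0.26, edgeR adjusted p = 0.0047). LOC111903118 had 2.10, 2.22, 2.47 and 1.58 CPM in the filtered plants, against 0.822, 0.951, 0.679 and 1.12 CPM in the control plants (log2 fold change 1.23, SE 0.24, edgeR adjusted p = 0.00486). Both kept the call in every alternative. LOC111896420 and LOC111909957 rose by 1.46 and 1.24 log2 units at mean levels under 3 CPM, and each lost the call in at least 1 alternative, 7 and 1 of them.

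A single abundant gene rose strongly. LOC111881790, of 18 exons on NW_019679650.1 (176866 to 182689, plus strand), had 708.0, 427.9, 310.5 and 468.7 CPM in the filtered plants, against 308.1, 208.2, 104.9 and 150.5 CPM in the control plants (log2 fold change 1.31, SE 0.33, edgeR adjusted p = 0.0231). The lowest filtered plant barely exceeded the highest control plant, and the call was lost in 4 alternatives, each leaving out 1 plant, with an adjusted p of up to 0.105. Under HC the means were 124.9 ± 59.9 CPM behind the filter and 68.1 ± 2.21 CPM behind glass (SD, n = 4 each), a log2 fold change of 0.87 that was not called (edgeR adjusted p = 0.128). LOC111894420, among the 3 higher genes with most reads, had 150.7, 151.4, 143.1 and 162.7 CPM in the filtered plants, against 108.7, 115.1, 114.5 and 111.2 CPM in the control plants (log2 fold change 0.44, SE 0.08, edgeR adjusted p = 0.00173). Of these 3 it alone kept the call in every alternative model, filter and sample set, but it did not reach the minimum log2 fold change of 1. LOC111909155, a long non-coding RNA that overlaps another gene, was higher by 0.31 log2 units (edgeR adjusted p = 0.0462) and lost the call in 9 alternatives.

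Across the 8 groups, the genes called lower were at their lowest in the filtered PC plants. Relative to each gene's mean over all 32 plants, the median of the 602 genes was −0.70 ± 0.12 log2 units in PC PTB7-Th:IEICO-4F, −0.29 ± 0.12 in PC FTAZ:PCBM, 0.10 ± 0.11 in PC FTAZ:IT-M and −0.10 ± 0.11 in the PC control (SD, n = 4 each). In the HC groups it was 0.20 ± 0.17 under PTB7-Th:IEICO-4F, 0.26 ± 0.13 under FTAZ:IT-M, 0.27 ± 0.15 under FTAZ:PCBM and 0.29 ± 0.10 behind glass. The PC filters share the control plants, and a gene is in the list because it was lower than in that control, so the order of the first and last PC groups follows from the choice. The choice also favours a low level in PC PTB7-Th:IEICO-4F relative to all other groups, so the distances to those groups are a description. Plants of PC FTAZ:PCBM and the PC control overlapped on this measure, as did the 4 HC groups, while the highest PC PTB7-Th:IEICO-4F plant (−0.54) was below the lowest plant of any other group (−0.45). PC PTB7-Th:IEICO-4F had the lowest of the 8 group means for 529 of the 602 genes (87.9%), a count that the choice of genes by a low PC PTB7-Th:IEICO-4F mean raises. The PC control had the highest for 11 (1.83%), and the HC control for 163 (27.1%).

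**Figure D4:**
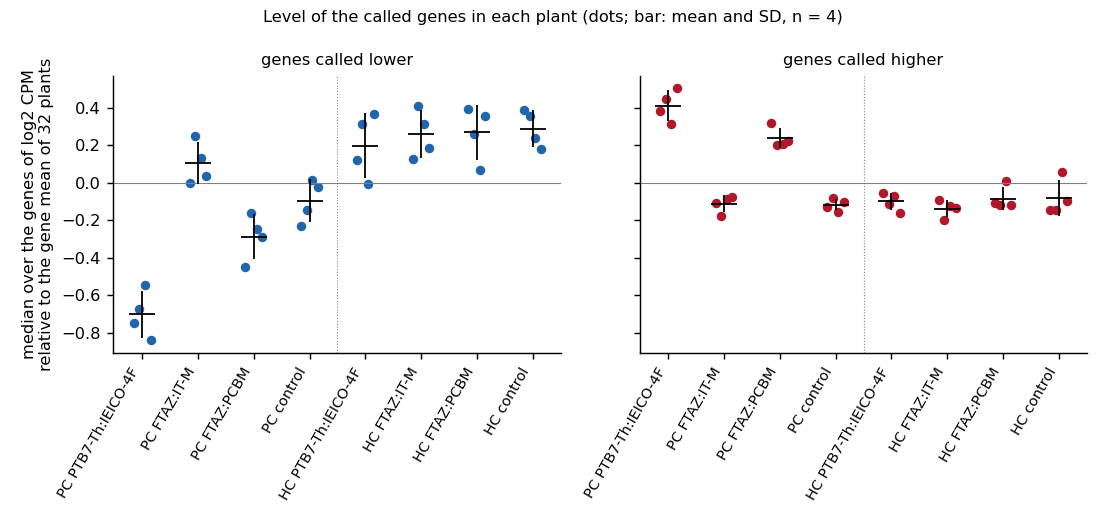
Median over the 602 genes called lower (left) and the 217 called higher (right) of log2 CPM relative to each gene's mean of 32 plants, with 1 dot per plant and the mean and SD of 4 plants. For the lower genes the PC PTB7-Th:IEICO-4F plants sit between −0.84 and −0.54, below the plants of all other groups.

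For the genes called higher, the median level was 0.41 ± 0.08 log2 units in PC PTB7-Th:IEICO-4F and 0.24 ± 0.06 in PC FTAZ:PCBM (SD, n = 4 each). It lay between −0.14 and −0.08 in the other 6 groups, the PC control among them.

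The HC experiment gave a readout of the same filter in other plants. Their levels did not enter the PC fold change, but as part of the model of 32 plants they entered the gene filter and the estimate of the spread behind the PC calls. Of the 602 genes called lower in PC, 385 (64.0%) had a negative log2 fold change under HC, against 48.9% of all tested genes, and their median was −0.08. The share followed the size of the PC change: 90 of the 104 genes with a PC log2 fold change under −1 were negative (86.5%, median −0.33), 59.8% of those from −1 to −0.5 and 58.3% of the rest. Among all tested genes with a PC log2 fold change under −1, called or not, the share was 74.6% of 457. Of the 217 higher genes 99 were positive under HC (45.6%, against 51.1% of all tested genes), and of the 20 with a PC log2 fold change over 1, 7 were (35.0%). Among all tested genes with a PC log2 fold change over 1, called or not, 268 of 405 were positive under HC (66.2%).

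**Figure D5:**
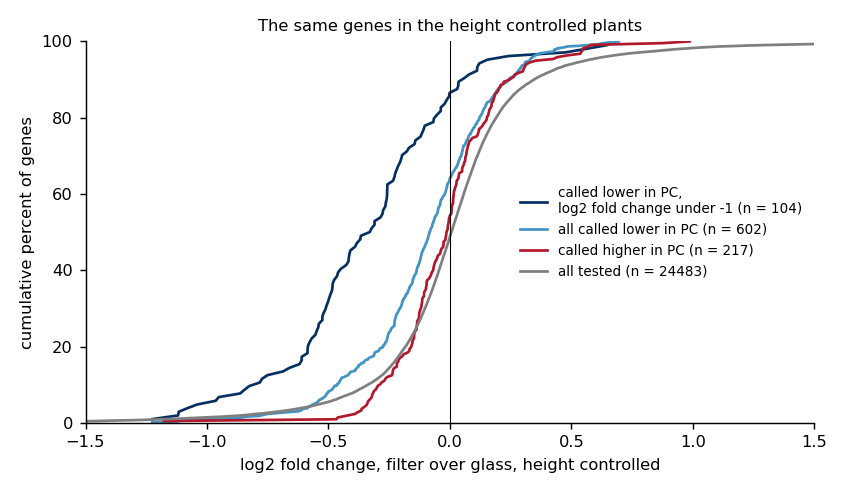
Cumulative percent of genes by log2 fold change, PTB7-Th:IEICO-4F filter over glass, in the HC plants. Curves crossing the zero line higher hold more genes that were lower under HC: 86.5% for the 104 genes with a PC log2 fold change under −1, 64.0% for all 602 lower genes, 54.4% for the 217 higher genes and 48.9% for all tested genes.

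The share differed for the abundant lower genes. Of the 78 with at least 100 CPM, 43 were negative under HC (55.1%), against 25.9% of the 1759 tested genes of that level. The shares rested in part on single HC plants. The share of the 602 was 52.2% without HC PTB7-Th:IEICO-4F replicate 3, against 49.2% of all tested genes in the same fit, and that of the 104 was 70.2% without the same plant. Over all single HC plants left out, the share of the 602 ran from 52.2% to 70.3% and that of the 104 from 70.2% to 91.3%.

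Few genes were called in both experiments. The HC comparison called 937 of the 24483 genes (3.83%), of which 384 were lower (1.57%) and 553 higher (2.26%). Of the 602 genes lower in PC, 11 were called lower under HC and 14 higher, and of the 217 higher in PC, 3 were called higher and 3 lower. For the 602, both counts were near the shares over all tested genes (1.57% lower, 2.26% higher). The HC calls depended strongly on the model: a model of only the HC groups compared called 20 genes in place of 937. Of the genes called alike in PC and HC, the 5 with the lowest larger adjusted p, LOC111917898, LOC111897598, LOC111901725, LOC111911097 and LOC111892508, were all lower and all had small changes. LOC111917898, of 3 exons on NW_019677377.1 (1253935 to 1255955, minus strand), had 17.3, 18.8, 19.9 and 18.7 CPM in the filtered PC plants, against 22.8, 21.8, 27.1 and 27.2 CPM in the PC control plants. Under HC it had 18.9, 25.1, 20.9 and 17.5 CPM in the filtered plants, against 31.4, 26.98, 27.8 and 26.2 CPM in the control plants. The groups did not overlap in either experiment, and the log2 fold changes were −0.41 in PC and −0.45 in HC (edgeR adjusted p = 0.0208 and 0.0112).

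LOC111911097, a long non-coding RNA of 4 exons on NW_019675974.1 (206976 to 208791, minus strand), had 2.22, 2.41, 3.12 and 1.89 CPM in the filtered PC plants, against 3.64, 3.57, 4.37 and 3.95 CPM in the PC control plants. Under HC its means were 5.25 ± 0.93 CPM behind the filter and 7.44 ± 0.19 CPM behind glass (SD, n = 4 each). The log2 fold change was −0.69 in PC and −0.50 in HC (edgeR adjusted p = 0.00438 and 0.0274). Of the 5 it alone kept its PC call in every alternative model, filter and sample set, but it did not reach the minimum log2 fold change of 1. The other 3 had PC log2 fold changes between −0.51 and −0.40 and HC log2 fold changes between −0.61 and −0.46. LOC111901725 overlaps another annotated gene, so its counts may include reads of that gene.

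The filter's effect differed between the experiments for 489 of 24483 genes (2.0%) by the interaction contrast, with a higher value in HC for 324 and a lower one for 165. Of the 14 largest falls in PC, 11 had a negative log2 fold change under HC. LOC111898254 was the only one of the 14 called by the interaction contrast, with a difference of 1.78 log2 units (edgeR adjusted p = 0.0253). Under HC it had 2.60 ± 0.60 CPM behind the filter and 2.54 ± 0.59 CPM behind glass (SD, n = 4 each). Differences in LOC111885663, LOC111883128 and LOC111891823 were larger, at 2.18, 1.97 and 1.82 log2 units. They were not called (edgeR adjusted p = 0.124, 0.238 and 0.0779). Among the largest rises, LOC111897659, LOC111909957 and LOC111903118 had smaller effects in HC than in PC, with differences of −1.42, −1.51 and −1.29 log2 units (edgeR adjusted p between 0.0362 and 0.0448). All of these genes were picked on their PC values, which also enter the difference.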

How the data were processed

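Leaf poly-A RNA of 32 plants was sequenced in libraries pooled over the same lanes, per the labels' protocols. FastQC, HISAT2, featureCounts and DESeq2 are named in the submitters' processing notes. The values the authors deposited are unnormalized counts per gene from featureCounts 2.0.1 on the RefSeq annotation of Lsat_Salinas_v7, per the file headers, with no option for strand, read pairs or multi-mapping reads. Sample titles and characteristics gave each plant's group and number.

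All 32 plants entered 1 edgeR model (edgeR 4.0.16, limma 3.58.1, R 4.3.3) with a mean per group, TMM scaling and filterByExpr (minimum count 10, total 15), which kept 24483 of 43717 genes. Quasi-likelihood p-values were adjusted by Benjamini-Hochberg over the tested genes, and calls used 0.05. Standard errors are the absolute log2 fold change divided by the square root of F. The slope on length was compared by exact permutation (scipy 1.17.1, pandas 2.3.3, Python 3.11.15). The script was tested on simulated data. Alternatives were DESeq2's size factors, DESeq2's Wald test (DESeq2 1.42.0), other filters, sample sets and thresholds, the replicate block, and leaving out plants. Thresholds were not among the alternatives counted for named genes. The alternatives of the HC shares were chosen after seeing the data.

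The 37 genes named by rule were the 14 largest falls and 6 largest rises (mean of at least 1 CPM, ranges not overlapping), the 5 lower and 3 higher genes with most reads, 5 called alike in HC, and the runs of 3 adjacent lower genes, with a gene counted once. Lists by gene function had been set, but no identifier could be matched to a product name, and none is reported. Biotypes came from RefSeq's Lsat_Salinas_v11 table, which matched 37879 identifiers. Its coordinates were not used. The comparison, members and lists were chosen with earlier results of these data known.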

Additional observations from a re-analysis of the deposited data

Results flagged for a closer look

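Among 88 sets of 4 values looked at in this comparison, 4 held a plant that stood apart by Dixon's gap ratio at its 95% critical value, where chance alone gives about 1 in 20, or 4.4. They were filtered replicate 3 for LOC111921786 (6.97 CPM, ratio 0.878) and LOC111904209 (999.04 CPM, ratio 0.931), PC control replicate 3 for LOC111883128 (143.6 CPM, ratio 0.837) and PC control replicate 4 for LOC111901725 (22.2 CPM, ratio 0.836).

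The effect of the filter differed between HC and PC for 489 genes by edgeR's interaction contrast. Of the named genes called by this contrast, those with a higher log2 fold change in HC were LOC111898254 (by 1.78), LOC111916389 (1.42), LOC111916390 (1.54) and LOC111916391 (1.66). Those with a lower one were LOC111897659 (−1.42), LOC111909957 (−1.51), LOC111903118 (−1.29) and LOC111894420 (−0.52).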

How the results depend on the processing

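Lower genes outnumbered higher genes in all alternatives run. Against 819 calls (602 lower, 217 higher), DESeq2's Wald test gave 1373 (990, 383), a model of only the groups compared 1372 (857, 515), a minimum log2 fold change of 1 gave 124 (104, 20), and an adjusted p under 0.01 gave 217 (154, 63). Leaving out 1 plant gave 199 to 1042 calls (lower 127 to 810, higher 72 to 232). DESeq2's size factors, no filter, a filter at 5 CPM and the 16 PC plants stayed within 1.5 times. The HC count of 937 was 1489 by the Wald test, 20 in the groups compared and 240 to 1125 without 1 plant. The interaction count of 489 was 931, 282 and 197 to 534 in the same order. The length slope difference ran from −0.0185 to 0.0182 without 1 plant and so changed sign. HC-negative shares without 1 HC plant ran from 52.2% to 70.3% for the 602 genes, 70.2% to 91.3% for the 104 and 43.8% to 62.2% for the 217. Over up to 16 alternative models, filters and sample sets, 0 of the 37 named genes reversed and 14 kept the call. The stricter thresholds were not among these. The causes were not tested.

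With the replicate number as a block there were 785 calls (585 lower, 200 higher), 1322 in the groups compared (807, 515), 881 in HC and 441 for the interaction. The numbers name different plants. Same-numbered plants deviated together with r between −0.0667 and 0.141, and differently numbered plants with r between −0.148 and 0.0967. These values show no clear pairing by number but cannot exclude one. Depth limits genes near 3 counts.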
